A study of Mus musculus with 36 samples.

Results

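The enzyme genes followed here, which inflamed myeloid cells and glia are known to induce, were measured over all treatments of cultured mouse microglia and astrocytes, and they are Acod1, Ch25h, Sod2, Gch1 and Nos2. All 5 were listed among the 15385 genes of the microglial table and the 14551 genes of the astrocyte table, and all 5 entered the tests, with 10524 and 13842 genes tested. The 5 were picked by name after their rise with the death stimuli, and for Acod1 and Ch25h also their response to the RIPK1 inhibitor Nec-1s, had been seen in these same libraries. Their rise over DMSO or over Nec-1s alone, and the Nec-1s responses of Acod1 and Ch25h, are therefore given as a description without a p.

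Each of the 5 makes or removes a small molecule in inflammation. Acod1 makes itaconate from the tricarboxylic acid cycle intermediate cis-aconitate, and itaconate slows succinate dehydrogenase. Ch25h hydroxylates cholesterol to 25-hydroxycholesterol, which holds back sterol synthesis and is the precursor of the ligand of the receptor Gpr183. Sod2 is the manganese superoxide dismutase of mitochondria. Gch1 catalyses the first step of tetrahydrobiopterin synthesis, and tetrahydrobiopterin is the cofactor that Nos2, the inducible nitric oxide synthase, needs to make nitric oxide from arginine. The genes are known targets of tumour necrosis factor (TNF) or of other inflammatory signals in macrophages and glia, and RIPK1 is the kinase through which the TNF receptor can trigger cell death and, in some settings, transcription.

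The RNA came from microglia and astrocytes of C57BL/6 mice aged 2 to 4 days by the labels, taken from pooled mixed glial cultures by magnetic selection (microglia by CD11b, astrocytes from the cells left over), and treated for 4 h. Microglia (24 libraries, 4 per treatment) received the vehicle DMSO, Nec-1s by itself (N), TNF plus 5z-7, which inhibits the kinase TAK1 (T/5z), TNF plus Smac mimetic plus zVAD, which inhibits caspases (T/S/Z), or either mixture plus Nec-1s (marked by the ending /N). Astrocytes (12 libraries, 3 per treatment) received the same treatments except those with 5z-7. No group received TNF alone, 5z-7 alone or Smac mimetic and zVAD alone, so what TNF adds to these inhibitors cannot be told apart from the inhibitors themselves.

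Values are log2(FPKM + 1), where FPKM is a fragment count scaled for exon length and library size. By the labels, the 2 tables came from different sequencing providers. They were scaled separately, and no test compares them. All 15 microglial markers were listed in the microglial table, and their summed level was 15478 to 19408 FPKM per library, against 4.88 to 22.2 FPKM for 9 listed of 10 astrocyte markers. In the astrocyte table, the sum was 2924 to 3406 FPKM for 10 astrocyte markers and 92.3 to 154 FPKM for 15 microglial markers. The smallest step between values gave a depth of 21.2 to 22.4 M reads or fragments per astrocyte library and 18.4 to 25.4 M in microglial replicate 4. At these depths 75.9% to 88.3% of low values came within 0.1 of a whole number, against 19.9% to 43.8% at 0.5 times the depth. In replicates 1 to 3 of microglia the depth is unknown, because each gene's mean over the treatments had been set to that of replicate 4 before deposit (largest difference 6.67e-05), which left values below 0.

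By GRCm38 coordinates, Acod1 (ENSMUSG00000022126) lies at chr14:103046977-103056573 on the plus strand and has 5 exons. Nos2 (ENSMUSG00000020826) lies at chr11:78920787-78960254, plus strand, with 27 exons in its first transcript. Ch25h (ENSMUSG00000050370) is a gene of 1 exon on the minus strand at chr19:34473778-34475164 in the astrocyte annotation and overlaps the long noncoding RNA Gm26902 of the other strand. Sod2 (ENSMUSG00000006818) spans chr17:13006846-13040063, plus strand, with a summed exon length of 10008 bases in the astrocyte annotation and 5861 in the microglial one. Gch1 (ENSMUSG00000037580) spans chr14:47153895-47189413 on the minus strand, has an exon length of 6251 bases in the astrocyte and 2775 in the microglial annotation, and overlaps the processed pseudogenes Gm49134 and Gm18811. Ch25h and Gch1 carry the annotation's mark for overlap with another gene, and reads of the neighbour may be part of their values.

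The stretches before the start sites are shown because the 5 genes rose together while differing in how far Nec-1s lowered them. RefSeq (GRCm38.p6) gave a start site for 4 of the 5 genes, and the 250 bases before it are printed 5′ to 3′ on the gene's strand. Capitals mark matches to the 10-letter NF-kB consensus or to TATAAA, searched on both strands together with the AP-1 letters TGANTCA. Acod1 is at chr14:103046762-103047011 (plus), Ch25h at chr19:34475149-34475398 (minus), Sod2 at chr17:13007589-13007838 (plus) and Gch1 at chr14:47189414-47189663 (minus).
Acod1: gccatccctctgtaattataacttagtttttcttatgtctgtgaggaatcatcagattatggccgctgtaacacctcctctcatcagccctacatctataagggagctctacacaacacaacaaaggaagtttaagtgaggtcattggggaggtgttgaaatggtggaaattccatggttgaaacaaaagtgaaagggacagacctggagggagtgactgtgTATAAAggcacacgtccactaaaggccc
Ch25h: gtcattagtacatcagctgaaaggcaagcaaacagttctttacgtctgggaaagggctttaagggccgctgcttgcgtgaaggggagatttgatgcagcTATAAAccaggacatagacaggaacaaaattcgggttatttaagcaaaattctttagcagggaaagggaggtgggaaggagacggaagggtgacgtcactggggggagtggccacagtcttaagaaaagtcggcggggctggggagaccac
Sod2: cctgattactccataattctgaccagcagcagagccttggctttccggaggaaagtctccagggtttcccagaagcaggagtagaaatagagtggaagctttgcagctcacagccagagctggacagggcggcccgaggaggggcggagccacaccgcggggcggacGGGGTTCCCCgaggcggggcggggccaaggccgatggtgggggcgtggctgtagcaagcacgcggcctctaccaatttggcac
Gch1: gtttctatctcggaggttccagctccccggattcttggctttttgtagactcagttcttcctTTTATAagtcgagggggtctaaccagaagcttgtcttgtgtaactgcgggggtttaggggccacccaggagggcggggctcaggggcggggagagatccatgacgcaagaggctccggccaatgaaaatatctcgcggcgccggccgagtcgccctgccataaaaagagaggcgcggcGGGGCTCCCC

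The NF-kB letters occurred in the Sod2 stretch, beginning 83 bases before the start, and in the Gch1 stretch, beginning 10 bases before it. TATAAA began 28 bases before the Acod1 start and 151 bases before the Ch25h start, and its reverse complement 188 bases before the Gch1 start. The AP-1 letters were in none of the 4 windows of 300 bases, which run on 50 bases past the start. Among 32851 promoter windows of the same length, 8.46% held the NF-kB letters, 13.6% TATAAA and 7.81% the AP-1 letters. GENCODE M21 places exon bases of Acod1-201, Ch25h-201 and Sod2-201 inside the printed stretches, with exon bases of Gm26902-201 and Gm26902-202 also in that of Ch25h, and none in that of Gch1.

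In microglia, Acod1 rose to the highest level of the 5 in FPKM. With DMSO it stood at 3.63, 3.81, 4.13 and 3.60 in replicates 1 to 4, and with N at 3.62, 3.55, 4.00 and 3.66. T/5z took it to 10.25, 10.22, 9.93 and 10.15, and T/S/Z to 9.46, 9.70, 9.54 and 9.59. Each stimulated library was far above every control library, and T/5z was above T/S/Z without overlap. The mean level was 1128 ± 106 FPKM (SD, n = 4) with T/5z and 762 ± 53 FPKM with T/S/Z, against 13.0 ± 2.5 FPKM with DMSO. The log2 difference from DMSO was 6.34 (SE 0.128) with T/5z and 5.78 (SE 0.0907) with T/S/Z. In bulk RNA, a change in the number of cells and a change of RNA per cell cannot be told apart.

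Ch25h showed the opposite order of the stimuli. Its microglial level was 2.31, 2.44, 2.20 and 1.81 with DMSO and 2.13, 2.31, 2.31 and 1.76 with N. T/5z gave 6.70, 6.79, 6.25 and 6.45, and T/S/Z gave 8.10, 8.00, 8.35 and 8.36. All 4 T/S/Z libraries lay above all 4 T/5z libraries, and both lay above the controls. The mean was 296 ± 37.5 FPKM with T/S/Z and 93.4 ± 15.6 FPKM with T/5z, from 3.62 ± 0.82 FPKM with DMSO. The log2 difference from DMSO was 6.01 (SE 0.145) with T/S/Z and 4.36 (SE 0.0908) with T/5z.

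Sod2 was already expressed without a stimulus and rose less steeply. Microglia had 4.34, 4.35, 4.64 and 4.24 with DMSO and 4.42, 4.28, 4.56 and 4.22 with N. The T/5z libraries were at 7.77, 7.78, 7.69 and 7.86 and the T/S/Z libraries at 7.44, 7.56, 7.45 and 7.54. Stimulated and control libraries did not overlap, and the lowest T/5z library was above the highest T/S/Z library. The log2 difference from DMSO was 3.38 (SE 0.0878) with T/5z and 3.10 (SE 0.0809) with T/S/Z, from 20.1 ± 2.61 FPKM to 218 ± 10.4 and 180 ± 7.85 FPKM.

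For Gch1 the microglial values were 2.75, 2.98, 2.99 and 2.52 with DMSO and 2.90, 2.79, 2.78 and 2.88 with N. They were 5.37, 5.31, 5.31 and 5.35 with T/5z and 5.48, 5.56, 5.71 and 5.82 with T/S/Z. T/S/Z was again the higher stimulus, by a small margin and without overlap. The log2 difference from DMSO was 2.53 (SE 0.0936) with T/5z and 2.83 (SE 0.114) with T/S/Z, from 6.06 ± 1.05 FPKM to 39.4 ± 0.827 and 49.1 ± 5.35 FPKM.

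Nos2 stayed close to the limit of detection in microglia. With DMSO its adjusted log2 values were -0.076, -0.013, 0.038 and 0.020, and with N -0.078, -0.035, 0.011 and 0.049, so 4 of these 8 libraries were below 0 and no fold on the FPKM scale is given. T/5z gave 1.46, 1.40, 1.16 and 1.18, and T/S/Z 0.59, 0.63, 0.56 and 0.58. The stimulated libraries were above all controls, and T/5z above T/S/Z, but the mean with T/5z was 1.47 ± 0.262 FPKM and with T/S/Z 0.506 ± 0.0286 FPKM. In replicate 4 this came to about 127 of the smallest steps with T/5z, 45 with T/S/Z and 1 with DMSO, where a step is taken as 1 read or 1 read pair. Nos2 entered the microglial tests through its T/5z libraries alone, the only ones at a log2 value of 1 or more. The log2 difference from DMSO was 1.31 (SE 0.114) with T/5z and 0.60 (SE 0.0975) with T/S/Z, and the latter was under the 1.5-fold limit without replicate 1 (0.57) or without replicate 2 (0.58).

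A gene was called when it changed by more than 1.5-fold with a Benjamini-Hochberg adjusted p of limma below 0.05. By this measure all 5 rose with T/5z, where 11.1% of all tested genes were called higher, and all 5 rose with T/S/Z, where 12.2% were. These counts follow from how the genes were picked. None of them was called with Nec-1s alone. Against DMSO, the log2 differences of N in microglia were between -0.081 (Acod1, SE 0.0574, adjusted p = 0.717, lower in 3 of 4 pairs) and 0.029 (Gch1, SE 0.0977, adjusted p = 0.956), with 0% of all genes called and 892 genes at an unadjusted p under 0.05. The groups overlapped for all 5 genes. Markers of another cell type moved with the stimuli at a low level. The sum of 9 listed astrocyte markers was 7.17 to 9.14 FPKM with DMSO, 12.1 to 22.2 with T/5z, 13.7 to 19.9 with T/S/Z, 8.15 to 8.95 with T/5z/N and 4.88 to 6.02 with T/S/Z/N. That of 6 listed fibroblast and vessel markers was 9.80 to 12.3 FPKM with DMSO, 11.5 to 18.2 with T/5z, 5.83 to 7.91 with T/S/Z, 7.68 to 9.27 with T/5z/N and 5.17 to 6.37 with T/S/Z/N. Their part in the values of the 5 genes was not tested.

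**Figure D1:**
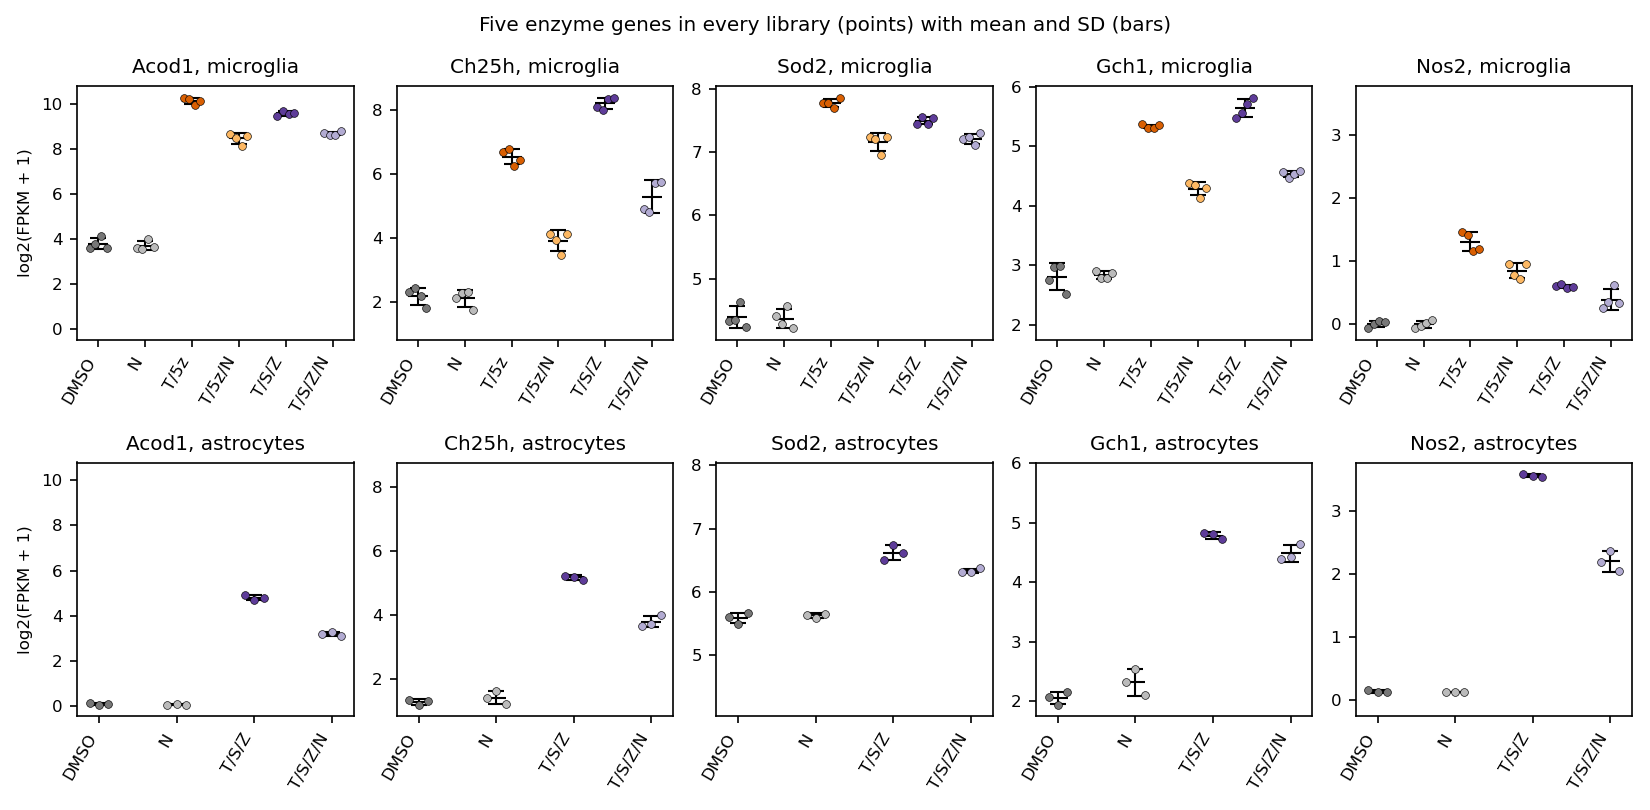
Levels of the 5 genes, log2(FPKM + 1), in every microglial library (upper row, 4 per treatment) and astrocyte library (lower row, 3 per treatment), with bars for mean and SD and 1 vertical scale per gene. Acod1 had the highest microglial level (10.25 in a T/5z library), and the Nos2 libraries of T/S/Z were at 0.56 to 0.63 in microglia and 3.55 to 3.59 in astrocytes.

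The microglial stimuli were then compared directly. These are the stimulated libraries whose rise had picked the genes, so the p values are not independent of that choice. No p is given for Acod1 and Ch25h, whose Nec-1s responses in these libraries had also entered the choice. Ch25h was higher with T/S/Z than with T/5z by 1.66 on the log2 scale (SE 0.142, higher in 4 of 4 pairs). It was past the threshold, where 9.83% of all genes were, and nothing is read from the call. Nos2 had a difference of -0.71 (SE 0.0908, lower in 4 of 4 pairs), which is a description without a p, because Nos2 entered the tests only through its T/5z libraries. Acod1 (-0.56, SE 0.0705), Sod2 (-0.28, SE 0.0458, adjusted p = 0.00316) and Gch1 (0.31, SE 0.0678, adjusted p = 0.0108) differed by less than 1.5-fold, each in the same direction in 4 of 4 pairs. With each gene's own variance the adjusted p of Gch1 was 0.0893, the highest over the alternatives tried (0.00408 the lowest). Without replicate 3 the Acod1 difference was -0.62 and past the limit. The order of the stimuli was thus T/5z over T/S/Z for Acod1, Sod2 and Nos2 and the reverse for Ch25h and Gch1.

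The change on adding Nec-1s was unequal among the 5 genes. In microglia Acod1 fell from the T/5z values above to 8.68, 8.47, 8.13 and 8.59 with T/5z/N. It fell from the T/S/Z values to 8.72, 8.62, 8.62 and 8.78 with T/S/Z/N. No library with Nec-1s reached a library without it, and the libraries with Nec-1s overlapped between the stimuli. The log2 difference was -1.67 (SE 0.0567) after T/5z and -0.89 (SE 0.0707) after T/S/Z. Nec-1s removed 69.3 ± 3.02% (SD over 4 pairs) of the rise in FPKM with T/5z and 46.6 ± 5.57% of that with T/S/Z. On the log2 scale these shares were 26.4 ± 3.52% and 15.4 ± 2.70%. Acod1 remained at 356 ± 56.6 and 411 ± 22.5 FPKM, 29.3 and 33.7 times its mean with N alone.

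On the log2 scale, the largest falls among the 5 were those of Ch25h in microglia. T/5z/N libraries had 4.14, 3.95, 3.46 and 4.14, and T/S/Z/N libraries 4.91, 4.81, 5.71 and 5.77. All were below the libraries without Nec-1s, and the T/S/Z/N libraries were split, with replicates 1 and 2 below replicates 3 and 4. After T/5z the log2 difference was -2.62 (SE 0.0821, lower in 4 of 4 pairs), and after T/S/Z it was -2.90 (SE 0.11). On the FPKM scale Nec-1s took away 87.9 ± 3.61% of the rise with T/5z and 87.8 ± 3.51% of the rise with T/S/Z. On the log2 scale these were 60.5 ± 8.37% and 48.7 ± 8.80%.

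On the log2 scale Sod2 fell less than Acod1, Ch25h and Gch1. It measured 7.24, 7.20, 6.95 and 7.24 with T/5z/N and 7.20, 7.23, 7.11 and 7.30 with T/S/Z/N. Neither group overlapped its stimulus without Nec-1s, and replicate 3 of T/5z/N was the low one. The log2 difference was -0.62 after T/5z (SE 0.0455, adjusted p = 2.6e-05, lower in 4 of 4 pairs), which was under the 1.5-fold limit without replicate 3 (-0.57) and after quantile normalization (-0.52). After T/S/Z it was -0.29 (SE 0.0451, adjusted p = 0.00119, lower in 4 of 4 pairs), under the limit, and after quantile normalization it was -0.030 (adjusted p = 0.554, the highest of the alternatives tried, with 0.000425 the lowest). Sod2 with Nec-1s still stood at 142 ± 13.2 and 147 ± 8.00 FPKM, 7.20 and 7.45 times its level with N.

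Gch1 fell after both stimuli. It had 4.38, 4.35, 4.13 and 4.29 with T/5z/N and 4.57, 4.47, 4.53 and 4.58 with T/S/Z/N. Each was below every library of its stimulus. The log2 difference was -1.05 after T/5z (SE 0.0489, adjusted p = 3.17e-06) and -1.10 after T/S/Z (SE 0.0593, adjusted p = 8.96e-06), in 4 of 4 pairs each. Nec-1s removed 62.6 ± 4.96% and 62.2 ± 4.76% of the rise in FPKM, and 41.8 ± 6.35% and 39.1 ± 4.57% on the log2 scale, so that Gch1 stood below Acod1 after T/5z by the FPKM share and above it by the log2 share.

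As fitted with 1 FPKM added, which shrinks the fold of so low a gene, Nos2 stayed under the 1.5-fold limit on adding Nec-1s in microglia. It had 0.95, 0.77, 0.71 and 0.94 with T/5z/N and 0.24, 0.35, 0.62 and 0.32 with T/S/Z/N. After T/5z the groups did not overlap, with a log2 difference of -0.46 (SE 0.0949, lower in 4 of 4 pairs), given without a p for the same reason. After T/S/Z they overlapped through replicate 3, and the difference was -0.21 (SE 0.103, adjusted p = 0.117, lower in 3 of 4 pairs). The mean FPKM with Nec-1s was 0.542 times that with T/5z and 0.612 times that with T/S/Z.

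In all, 4 of the 5 genes were called lower with T/5z/N than with T/5z, where 4.52% of all genes were, and 3 of the 5 with T/S/Z/N than with T/S/Z, where 6.72% were. For Acod1 and Ch25h nothing is read from the calls, since their Nec-1s responses had entered the choice. The other calls were Sod2 and Gch1 after T/5z and Gch1 after T/S/Z, and they share the stimulated libraries with the rise that picked these genes. The levels that remained with Nec-1s were then set against N alone. All 5 were called higher with T/5z/N than with N (6.02% of all genes), with log2 differences from 0.86 (Nos2) to 4.76 (Acod1), and 4 of 5 with T/S/Z/N (6.28% of all genes), from 0.40 (Nos2, under the limit) to 4.98 (Acod1). Of the 4 abundant genes, Gch1 had the level nearest to that with N after T/5z/N, at 3.02 times (log2 difference 1.45). Ch25h was at 4.22 times its level with N after T/5z/N (log2 difference 1.80) and at 11.8 times after T/S/Z/N.

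**Figure D2:**
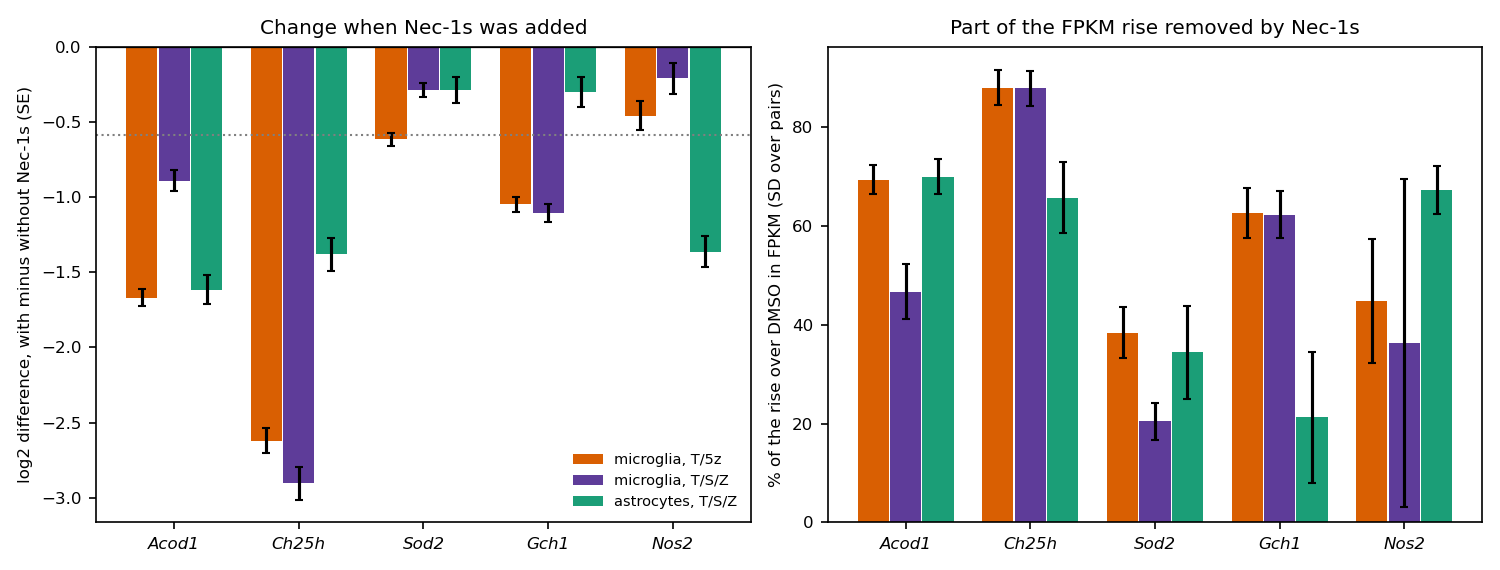
Left, fitted log2 difference between stimulus with and without Nec-1s for the 5 genes (bars, with SE), in microglia after T/5z and T/S/Z (n = 4 each) and in astrocytes after T/S/Z (n = 3), where the dotted line marks a 1.5-fold decrease. Right, the share of the rise over DMSO in FPKM that Nec-1s removed (bars, mean over pairs, with SD), which was highest for Ch25h in microglia (87.9% and 87.8%) and lowest for Sod2 after T/S/Z in microglia (20.4%).

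Whether the Nec-1s effect differed between the microglial stimuli was fitted as an interaction over T/5z, T/5z/N, T/S/Z and T/S/Z/N. For Acod1 the effect was smaller in size after T/S/Z than after T/5z, with a difference of 0.78 (SE 0.115) in the same direction in 4 of 4 replicates. Sod2 showed the same direction, 0.33 (SE 0.0616, adjusted p = 0.00156, in 4 of 4 replicates), under the 1.5-fold limit. Gch1 (-0.057, SE 0.0946, adjusted p = 0.698) did not pass. For Nos2 the difference was 0.25 (SE 0.149), and for Ch25h it was -0.28 (SE 0.295) and in that direction in 3 of 4 replicates. Acod1 was the 1 gene past the threshold, where 6.47% of all genes were, and nothing is read from it because its Nec-1s responses had entered its choice.

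With Nec-1s present, the microglial stimuli left different levels of Ch25h. Ch25h was 1.38 higher with T/S/Z/N than with T/5z/N (SE 0.212, higher in 4 of 4 pairs), the 1 call among the 5 genes, where 3.38% of all genes were called. With each gene's own variance it did not pass. Nothing is read from the call, because the Nec-1s responses of Ch25h and Acod1 had entered their choice, and no p is given for either. Acod1 (0.22, SE 0.0686), Gch1 (0.25, SE 0.0532, adjusted p = 0.0105) and Nos2 (-0.46, SE 0.119, adjusted p = 0.0229) were under the 1.5-fold limit on the log2(FPKM + 1) scale. The adjusted p values of Gch1 and Nos2 rose above 0.05, to 0.116 and 0.146, with each gene's own variance. The mean of Nos2 was 0.797 FPKM with T/5z/N and 0.310 FPKM with T/S/Z/N, a ratio of 0.388, without overlap. For Sod2 the difference was 0.05 (SE 0.0408, adjusted p = 0.391).

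The same 5 genes rose in astrocytes with T/S/Z, from other starting points. Acod1 was near 0 with DMSO (0.12, 0.049 and 0.095 in replicates 1 to 3) and with N (0.050, 0.072 and 0.049), which came to between 2 and 5 such steps per library. T/S/Z brought it to 4.93, 4.71 and 4.77, and T/S/Z/N to 3.19, 3.27 and 3.11. The 4 groups did not overlap apart from DMSO with N. The mean level was 27.0 ± 2.30 FPKM with T/S/Z and 8.12 ± 0.505 FPKM with T/S/Z/N (SD, n = 3). The log2 difference was 4.72 (SE 0.098) for T/S/Z against DMSO and -1.62 (SE 0.0965) on adding Nec-1s.

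Ch25h in astrocytes had 1.35, 1.18 and 1.31 with DMSO and 1.39, 1.62 and 1.23 with N. It had 5.22, 5.19 and 5.08 with T/S/Z and 3.64, 3.72 and 3.98 with T/S/Z/N. Only the unstimulated groups overlapped. T/S/Z raised it by 3.88 on the log2 scale (SE 0.0933), to 34.8 ± 1.84 FPKM, and Nec-1s lowered it by -1.38 (SE 0.111), to 12.8 ± 1.70 FPKM.

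Nos2 was the member that astrocytes expressed clearly and microglia hardly. With DMSO it had 0.17, 0.13 and 0.13, and with N 0.13, 0.13 and 0.13. With T/S/Z it had 3.59, 3.56 and 3.55, and with T/S/Z/N 2.19, 2.38 and 2.05. Stimulated libraries stood far above the controls, and no T/S/Z/N library reached a T/S/Z library. The level was 0.103 ± 0.0165 FPKM with DMSO, 10.9 ± 0.202 FPKM with T/S/Z and 3.63 ± 0.527 FPKM with T/S/Z/N. Nec-1s lowered it by -1.36 (SE 0.103, adjusted p = 0.000701, lower in 3 of 3 pairs), which took away 67.2 ± 4.83% of the rise in FPKM and 39.7 ± 4.69% on the log2 scale.

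Gch1 in astrocytes had 2.08, 1.94 and 2.15 with DMSO, 2.32, 2.54 and 2.10 with N, 4.83, 4.81 and 4.72 with T/S/Z and 4.39, 4.42 and 4.65 with T/S/Z/N. The rise was 2.73 (SE 0.0951). The groups with and without Nec-1s did not overlap, but the difference of -0.30 (SE 0.1, adjusted p = 0.105, lower in 3 of 3 pairs) passed neither threshold.

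Sod2 had the highest astrocyte level of the 5 without a stimulus, 5.60, 5.50 and 5.67 with DMSO and 5.64, 5.59 and 5.65 with N. T/S/Z gave 6.50, 6.75 and 6.61 and T/S/Z/N 6.31, 6.31 and 6.37. The ranges with and without Nec-1s did not overlap. Its rise of 1.03 (SE 0.088) was the smallest of the 5, and the change on adding Nec-1s was -0.29 (SE 0.0869, adjusted p = 0.0834, lower in 3 of 3 pairs).

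All 5 genes were called higher with T/S/Z than with DMSO in astrocytes, where 6.39% of all genes were, and all 5 higher with T/S/Z/N than with N, where 4.33% were. Acod1, Ch25h and Nos2 were called lower on adding Nec-1s, where 1.59% of all genes were, and for Acod1 and Ch25h this response had entered the choice. The call of Nos2 shares the T/S/Z libraries with the rise that picked it. With each gene's own variance in place of the shared estimate, none of the 5 was called on adding Nec-1s, the adjusted p of Nos2 was 0.202, and 3 genes were called in the whole table. By the same measure Sod2 was no longer called with T/S/Z against DMSO, and 2 of the 5, Acod1 and Sod2, were called with T/S/Z/N against N. Nothing is read from the calls of the rise, since it had picked the genes. Over the alternatives tried, the adjusted p of Nos2 on adding Nec-1s ran from 7.54e-05 to 0.202. In astrocytes Acod1 and Nos2 reached a log2 value of 1 in T/S/Z and T/S/Z/N libraries alone. Nec-1s alone gave log2 differences from DMSO between -0.031 (Acod1, adjusted p = 0.991) and 0.26 (Gch1, SE 0.137, adjusted p = 0.88), with none of the 5 called and 0.0144% of all genes called. The astrocyte cultures changed in other cell markers too. The sum of 5 listed fibroblast and vessel markers was 378 to 419 FPKM with DMSO, 84.3 to 95.2 FPKM with T/S/Z and 325 to 336 FPKM with T/S/Z/N. That of 7 listed oligodendrocyte lineage markers was 100.2 to 117 FPKM with DMSO, 60.3 to 86.9 with T/S/Z and 67.9 to 71.9 with T/S/Z/N. The part of these in the values of the 5 genes was not tested.

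The tables were set side by side as values, since they were normalized separately and the exon lengths of Sod2 and Gch1 differ between them. With T/S/Z the mean FPKM in astrocytes was 3.54% of that in microglia for Acod1, 11.8% for Ch25h, 54.3% for Sod2 and 54.2% for Gch1. For Nos2 it was 2146%. Microglial RNA in the astrocyte cultures bears on these shares. For the 15 microglial markers the astrocyte level was 0.177% to 18.7% of the microglial level with T/S/Z, with a median of 0.449%. The Acod1 and Ch25h shares lay inside this range and above its median, and those of Sod2, Gch1 and Nos2 lay above it. The highest marker shares were those of P2ry12 (18.7%) and Tmem119 (4.59%), which were below 1 FPKM in these astrocytes. With T/S/Z/N the marker shares were 0.250% to 30.1%, with a median of 0.716%. Acod1 at 1.98% was again inside them, and Ch25h (31.8%), Sod2 (54.1%) and Gch1 (96.9%) were above. With DMSO the Acod1 share of 0.487% lay inside the range of the markers, 0.349% to 43.0%. The summed level of the 15 markers in astrocytes was lower with T/S/Z (92.3 to 98.7 FPKM) than with DMSO (145 to 154 FPKM). The part of microglial RNA in the astrocyte values of Acod1 and Ch25h was not tested.

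**Figure D3:**
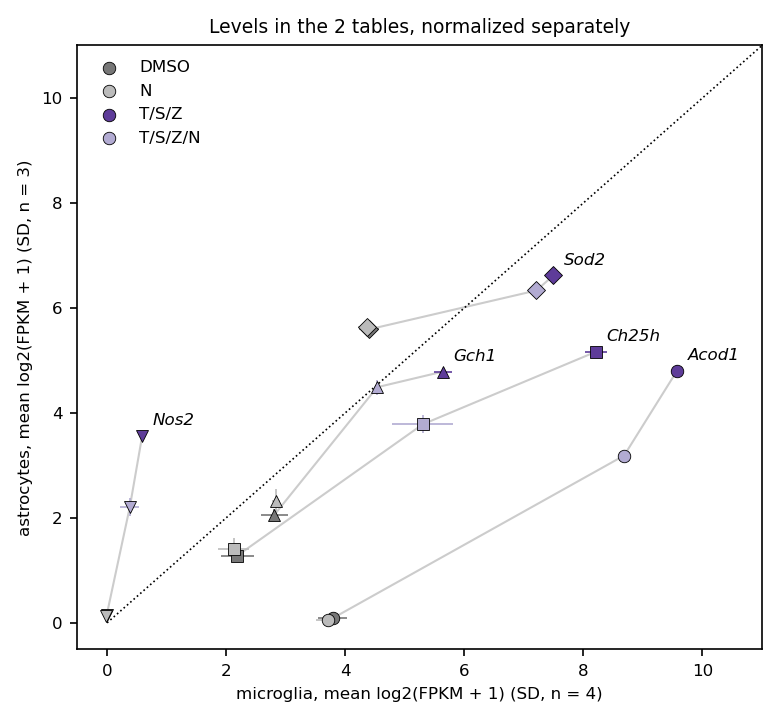
Mean log2(FPKM + 1) of the 5 genes in astrocytes (vertical, SD, n = 3) against microglia (horizontal, SD, n = 4) with DMSO, N, T/S/Z and T/S/Z/N, where grey lines join the groups of a gene and the dotted line marks equal values. Nos2 lay above the dotted line in all 4 groups, and Sod2 crossed it between the unstimulated groups (5.59 in astrocytes and 4.39 in microglia with DMSO) and T/S/Z (6.62 and 7.50).

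Other genes of the same pathways were taken from 6 lists. From each list the gene with the largest called change in each direction with T/S/Z against DMSO in microglia is named. Its p in that contrast comes from the values that picked it. Direct partners of the members are named for their role. For reading the counts of the lists, T/5z lowered 13.3% of all microglial genes tested, T/S/Z lowered 17.5% of them and 8.99% of the astrocyte genes, beside the shares called higher given above. Around Acod1, 22 genes of the tricarboxylic acid cycle and of itaconate breakdown were tested in microglia. None was called higher with T/5z or T/S/Z, and 2 and 1 were called lower, with medians of -0.20 and -0.17 against -0.058 and -0.085 over all genes. Idh1, the cytosolic isocitrate dehydrogenase, fell with T/5z (-1.02, SE 0.049, adjusted p = 4.68e-06) and with T/S/Z (-1.58, SE 0.0606, adjusted p = 5.78e-07), and rose when Nec-1s was added to T/S/Z (0.66, SE 0.059, adjusted p = 8.72e-05), each in 4 of 4 pairs. In astrocytes Idh1 was the single call among the 22, at -0.60 (SE 0.0836, adjusted p = 0.00156, 3 of 3 pairs), and was under the 1.5-fold limit without replicate 1 (-0.51). The median of the 22 there was -0.074, against -0.11 over all genes.

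Around Ch25h, 13 genes of oxysterol and cholesterol handling were tested in microglia, with 2 higher and 5 lower with T/5z (median -0.34) and 2 higher and 3 lower with T/S/Z (median -0.17). Insig1, the endoplasmic reticulum protein through which 25-hydroxycholesterol holds back sterol synthesis, rose with T/5z (0.78, SE 0.0497) and with T/S/Z (1.63, SE 0.0648, adjusted p = 6.44e-07), and fell by 1.15 when Nec-1s was added to T/S/Z (adjusted p = 2.13e-06). The other higher gene was Nr1h3, an oxysterol receptor, which rose more than Insig1 with T/5z (1.99, SE 0.0528) and less with T/S/Z (1.32, SE 0.0723). Abcg1, a cholesterol exporter, fell with both stimuli (-1.15 and -1.74). Gpr183, the receptor for the product made from 25-hydroxycholesterol, fell with T/5z (-1.75, SE 0.0755, adjusted p = 3.09e-06). With T/S/Z against DMSO it had -0.54 (SE 0.119), under the 1.5-fold limit. It was 1.21 higher with T/S/Z than with T/5z (adjusted p = 0.000194) and fell by 1.17 on adding Nec-1s to T/S/Z (adjusted p = 4.17e-05), each in 4 of 4 pairs. On adding Nec-1s to T/5z it moved the other way, by 0.31 (SE 0.0646), under the limit. Hsd3b7, which clears that product, had -0.54 and -0.51, under the 1.5-fold limit, with the T/5z value past it without replicate 3 (-0.63). In astrocytes 1 of 12 was called with T/S/Z (median -0.16), Cyp7b1, the enzyme that next hydroxylates 25-hydroxycholesterol, which rose by 0.96 (SE 0.129, adjusted p = 0.00139, 3 of 3 pairs).

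Around Sod2, 20 genes of superoxide and peroxide handling were tested in microglia, with 5 higher and 1 lower with T/5z (median 0.020) and 8 higher and none lower with T/S/Z (median 0.079). Txnrd1, the cytosolic thioredoxin reductase, rose by 2.02 with T/5z (SE 0.0652) and by 2.27 with T/S/Z (SE 0.0695, adjusted p = 2.23e-07). Nec-1s lowered it after T/5z (-0.65, SE 0.0501, adjusted p = 3.25e-05, lower in 4 of 4 pairs). Sod1, the cytosolic dismutase, had -0.06 (SE 0.059) with T/5z and 0.14 (SE 0.0528) with T/S/Z, neither called and both with a sign that changed with the scaling. Cat, catalase, had -0.50 with T/S/Z, under the limit, and rose by 0.68 when Nec-1s was added (SE 0.0442, adjusted p = 2.2e-05, higher in 4 of 4 pairs). In astrocytes 3 of 21 were called higher with T/S/Z (median 0.028), among them Sod3, the extracellular dismutase (0.83, SE 0.0794, adjusted p = 0.000295), and Txnrd1 (0.68, SE 0.075, adjusted p = 0.000557), each in 3 of 3 pairs.

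Around Gch1, none of 4 tested genes of tetrahydrobiopterin synthesis and recycling was called in microglia and none of 7 in astrocytes, with any stimulus or with Nec-1s. Pts, which acts next after Gch1, had -0.25 (SE 0.0618) with T/5z and -0.28 (SE 0.0759) with T/S/Z in microglia. Qdpr, which recycles the cofactor, had -0.32 (SE 0.0448) and -0.25 (SE 0.0511). The list's median with T/S/Z was -0.15 in microglia and -0.19 in astrocytes.

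Around Nos2, 8 arginine genes were tested in microglia, and 2 were higher with T/5z (median 0.31) and 4 higher and 1 lower with T/S/Z (median 0.75). Slc7a2, a carrier that brings arginine into the cell, rose by 3.42 with T/5z (SE 0.124, adjusted p = 1.42e-06) and by 3.35 with T/S/Z (SE 0.106, adjusted p = 2.62e-07). Nec-1s lowered Slc7a2 after T/5z (-1.50, SE 0.0505, adjusted p = 7.06e-07) and after T/S/Z (-0.88, SE 0.0652, adjusted p = 3.74e-05). Ass1, which helps to rebuild arginine from citrulline, rose with T/S/Z (1.34, SE 0.0964, adjusted p = 1.17e-05) and had 0.14 with T/5z (adjusted p = 0.112), and the stimuli differed by 1.20 (adjusted p = 0.000205). Its fall on adding Nec-1s to T/S/Z (-0.62) was under the 1.5-fold limit without replicate 3 (-0.57) or replicate 4 (-0.56). Nosip, which binds nitric oxide synthases, was the 1 lower gene (-0.59), and was under the limit without replicate 1 (-0.55) or replicate 4 (-0.54) and after median centring (-0.49).

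In astrocytes 2 of 10 arginine genes were higher with T/S/Z (median 0.033), one of them Slc7a2 (2.14, SE 0.11, adjusted p = 1.52e-05). Its change on adding Nec-1s was -0.25 (SE 0.0851, adjusted p = 0.107). Ass1 had -0.57 with T/S/Z (SE 0.083), under the 1.5-fold limit, and -0.66 and past it without replicate 2.

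The last list held 17 other enzymes and carriers known to change in inflammation, of which 11 were tested in microglia and 12 in astrocytes. With T/5z 6 were higher and 2 lower (median 0.61), with T/S/Z 7 higher and 1 lower (median 0.70), and in astrocytes 6 higher and none lower (median 0.48). Slc7a11, the carrier that exchanges cystine for glutamate, rose by 3.24 with T/5z (SE 0.0926) and by 4.06 with T/S/Z (SE 0.205, adjusted p = 1.99e-06). Nec-1s lowered it in microglia after T/5z (-1.19, adjusted p = 6.09e-06) and after T/S/Z (-0.77, adjusted p = 0.000262), whereas in astrocytes it rose by 0.91 when Nec-1s was added to T/S/Z (SE 0.088, adjusted p = 0.00189, higher in 3 of 3 pairs). Xdh, xanthine dehydrogenase, fell with T/5z (-1.28, SE 0.0986) and T/S/Z (-0.96, SE 0.0881). With each gene's own variance the astrocyte calls given for Idh1, Cyp7b1, Sod3, Txnrd1 and Slc7a2 with T/S/Z did not pass, with adjusted p from 0.0662 (Slc7a2) to 0.119 (Cyp7b1), nor did that for Slc7a11 on adding Nec-1s (adjusted p = 0.191).

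**Figure D4:**
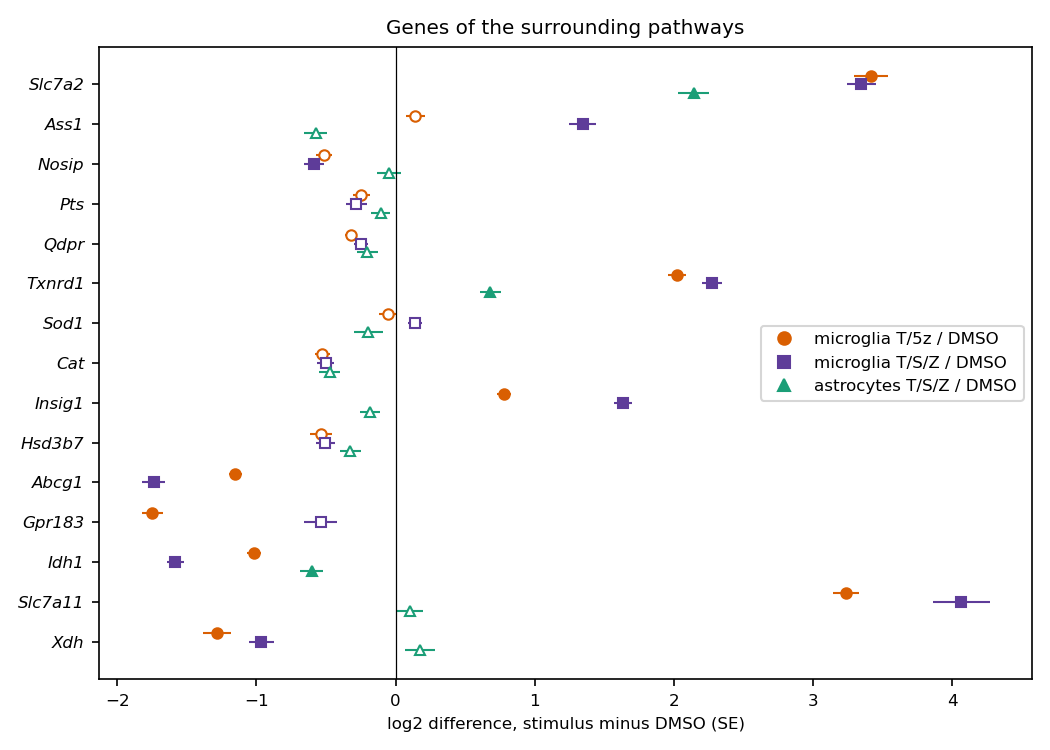
Fitted log2 difference from DMSO, with SE, for 15 genes of the pathways around the 5 enzymes, in microglia with T/5z (circles) and T/S/Z (squares) and in astrocytes with T/S/Z (triangles), where filled symbols are called and genes not tested in a table have no symbol. Slc7a2 (3.42, 3.35 and 2.14) and Txnrd1 (2.02, 2.27 and 0.68) were called in all 3 contrasts, and Idh1 was lower in all 3.

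The genes whose levels ran most like those of the 5 were looked up by Pearson's r over the libraries of a table, as a description, since all points share the same stimuli. Over the 24 microglial libraries Acod1 was closest to Clec4e (0.997) and Sod2 (0.997), and Sod2 to Clec4e (0.999) and Icam1 (0.999). Ch25h ran closest to Tnfsf9 (0.989), Gch1 to Nlrp3 (0.993) and Nos2 to Gbp5 (0.976). Over the 12 astrocyte libraries Acod1 was closest to Noct (0.998), Cxcl1 (0.998) and Nos2 (0.998), and Ch25h to Acod1 (0.996). Sod2 was nearest to Lcn2 (0.995) and Gch1 to Casp4 (0.996).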

How the data were processed

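Per the extraction protocol in the labels, mRNA of microglia was sequenced by one provider and that of astrocytes by another, with a strand-specific protocol for astrocytes. The study's methods give the same provider for both cell types, so the labels and the methods differ on this. The authors aligned, counted and scaled the reads in OmicSoft Array Studio (10.1.1.3) to a common upper quartile (75th percentile 4.73 to 4.74 in astrocytes, 4.11 to 4.16 in microglia) and deposited log2(FPKM + 1) values. The deposited exon lengths, in bases, were read for the members alone. Replicates 1 to 3 of the microglial table had 187 to 1438 values below 0 per library after the adjustment of their gene means. Total counts were not used here.

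Genes with a log2 value of at least 1 in 4 microglial or 3 astrocyte libraries were tested by limma 3.58.1 (R 4.3.3, lmFit, eBayes with trend, 2-sided, Benjamini-Hochberg over all tested genes), on the libraries of the compared groups, with the replicate number as a block after the paired test of the study. Same-numbered libraries had a median correlation of residuals of 0.041 in astrocytes and -0.249 in microglia, and the adjustment of the replicate means makes the latter uninformative. Per the study's methods, replicates are biological, which for cultured mouse cells means separate litters. The labels do not tie a replicate number to an animal or litter. The scripts were tested on simulated data. The 5 members, the 6 pathway lists and the genes named from them were chosen with earlier results of these data known. From each list the called gene with the largest log2 change in each direction with T/S/Z against DMSO in microglia was named, besides direct partners of a member. A few further called genes are given to show what a count holds, and the rest are not named. A gene of the arginine list is not reported here, and the counts of that list are over its other genes. Fold changes on this scale understate the change of low genes. Depth was read from the smallest step between low values, and intervals are not given from it.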

Additional observations from a re-analysis of the deposited data

Results flagged for a closer look

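Sod2 in microglia with T/5z/N had 1 library far from the others, replicate 3 at 6.95, against 7.20 to 7.24 in the remaining 3. It was the 1 such library among 30 microglial groups of 4, where chance gives 1.5. Without that replicate the fall of Sod2 on adding Nec-1s to T/5z was -0.57 in place of -0.62.

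The Nec-1s effects after the microglial stimuli were set against each other by the interaction term. For Sod2 the effect was 0.33 less negative after T/S/Z than after T/5z (adjusted p = 0.00156, in 4 of 4 replicates), under the 1.5-fold limit, also when a replicate was left out (0.30 to 0.36). For Acod1 the value was 0.78, given as a description, since its Nec-1s responses had entered its choice.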

How the results depend on the processing

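Of 728 values of the 5 members under an alternative, 702 kept their direction and their side of the threshold, 16 no longer passed it, 2 newly passed it and 8 turned sign. All 8 were small differences: Nos2 with N against DMSO in microglia (8.91e-05 with pseudocount 5, 0.0034 after median centring, -0.017 to 0.0014 without a replicate) and in astrocytes (-0.018 to 0.00065 without a replicate), Gch1 in microglia (-0.082 to 0.11 without a replicate), Ch25h in astrocytes (-0.020 to 0.24 without a replicate), and the Gch1 interaction (0.014 after quantile normalization). Sod1 turned to 0.013 with T/5z after median centring and to -0.29 with T/S/Z after quantile normalization. In microglia Sod2 on adding Nec-1s to T/5z was -0.52 after quantile normalization, and Acod1 with T/S/Z against T/5z -0.79.

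In microglia the replicate means had been set equal before deposit, which limits what leaving out the replicate block can show there. Without the replicate block, the counts of members called did not change in any comparison (for T/5z/N against T/5z 4, for T/S/Z/N against T/S/Z 3), and the only count over all genes that moved by over 1.5 times was that of N against DMSO in astrocytes, 0 in place of 2. It was also 0 with pseudocount 5, without a filter and with each gene's own variance, 10 with the filter on mean values (at least 3), and 0 to 16 when a replicate was left out (0 to 1 in microglia).

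Counts over all genes fell with pseudocount 5 and with the mean filter, which tests fewer genes. In microglia they were 1484 and 1463 for T/5z against DMSO, 1633 and 1705 for T/S/Z against DMSO, 314 and 385 for T/5z/N against T/5z, 514 and 628 for T/S/Z/N against T/S/Z, 782 and 819 for T/5z/N against N, 833 and 897 for T/S/Z/N against N, 611 and 652 for T/S/Z against T/5z, 159 and 227 for T/S/Z/N against T/5z/N and 396 and 426 for the interaction. In astrocytes they were 985 and 1094 for T/S/Z, 180 and 225 for T/S/Z/N against T/S/Z (274 to 761 without a replicate) and 541 and 620 for T/S/Z/N against N. With each gene's own variance they were 281, 3 and 181. Among the calls with T/S/Z in microglia 41.1% were higher, and 52.7% after median centring. On adding Nec-1s to T/S/Z 44.3% were, and 28.9% after median centring, and in astrocytes with T/S/Z 41.5%, and 52.1% after quantile normalization. With pseudocount 5 the shares were 54.1%, 21.2% and 57.6%, and with each gene's own variance the last was 63.0%. For T/S/Z/N against N in astrocytes 50.8% became 69.9% with pseudocount 5 and 74.6% with each gene's own variance, and for T/5z/N against T/5z 36.9% became 25.5% with pseudocount 5. With the mean filter T/S/Z in microglia gave 52.3%, and T/S/Z/N against N there 55.9% in place of 45.3%. For T/5z against DMSO 45.5% became 53.6% after median centring.

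Members past the threshold with T/S/Z against T/5z, 2 with Nos2 counted, were 1 with pseudocount 5 and 1 with the mean filter, and 2 to 3 without a replicate. The rise of Nos2 with T/S/Z was 0.14 with pseudocount 5. With T/S/Z/N against T/5z/N 0 were called with each gene's own variance. In astrocytes the mean filter keeps 2 members, both called with T/S/Z and with T/S/Z/N against N and 0 on adding Nec-1s, and each gene's own variance gave 0 on adding Nec-1s (Nos2 adjusted p = 0.202) and 2 with T/S/Z/N against N. The cause was not tested. With 3 or 4 libraries a group, small differences are not resolved.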
